A study of Mus musculus with 12 samples.

Results

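Forms of the growth hormone receptor were compared in mouse samples by setting all 6 arrays titled NLS (nuclear localization signal, as that abbreviation is commonly read) against all 6 titled WT (wild type). Together they are the 12 arrays of the study, and each array was placed in its form by title alone. Each form has 3 arrays at 0GH and 3 at 1GH, with replicate letters b, c and d, so the arrays form 6 pairs of one letter and one GH number. The titles carry a 10 after the receptor name and a 0 or 1 before GH, and the labels give neither a meaning nor a unit for these numbers. Every sample, 0GH included, is labelled with human growth hormone treatment at 100 ng/ml, in an experiment described as a time course. The labels name no cell type, promoter, clone or genetic background, and do not say whether the letters are separate cultures, so p-values measure only the spread between these samples, which may be technical.

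The growth hormone receptor is a cell surface receptor of the cytokine family that signals through the kinase JAK2 and the transcription factors STAT5A and STAT5B. Cish, Socs2 and Socs3 encode inhibitors that this pathway induces and that limit it. The receptor has also been found inside the nucleus, and a nuclear localization signal is a short stretch of protein that importins recognise and carry through the nuclear pore.

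On each array the sample was in Cy3 and a common embryonic reference RNA in Cy5, and 15939 to 19700 spots out of 23040 gave a value. Values are given as log2 of sample over reference with the median of each array set to 0. The deposited ratios were read as reference over sample and their sign was turned. After that, 72.7% to 87.7% of a list of embryo genes lay on the reference side on every array. This list was drawn up with earlier results of these data known, so it is no independent check of the sign. The opposite reading would turn every sign below, and log2 as the base was inferred. A value on all 12 arrays was found for 8707 named genes and 2055 unnamed spots, 10762 features in all. The number of arrays limits the precision of each value.

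The 15 leading higher genes are those with the smallest p among genes that lay higher with the NLS form in every pair, and the 15 leading lower genes are their counterpart. Among the higher ones Phgdh, the first enzyme of serine synthesis, lay 4.62-fold higher, Pgam1, a glycolytic mutase, 5.16-fold higher, and Mybbp1a, a nucleolar protein that binds MYB, 2.71-fold higher. The lower ones included Tmem43, a protein of the inner nuclear membrane, 14.8-fold lower, Gsn, the actin-severing protein gelsolin, 3.08-fold lower, and Ccnd3, a D-type cyclin of G1, 2.14-fold lower. No feature passed an adjusted p of 0.05.

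In limma with the replicate letter as a block and the GH number as a covariate, 0 of 10762 features (0%) passed the Benjamini-Hochberg threshold, and the lowest adjusted p was 0.101, shared by Phgdh, Eif5a, Inmt and Pgam1. An unadjusted p under 0.05 was found for 891 features (8.28%), of which 457 (4.25%) lay higher in NLS and 434 (4.03%) lower. With the letter as a random block 2 features passed, Phgdh and Inmt, each at an adjusted p of 0.0340. With green dye incorporation as a covariate the lowest adjusted p was 0.310.

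Agreement in sign across letters and GH numbers was counted without a test. The gene lists used below were drawn up with earlier results of these data known, and they include leading genes. Their counts are therefore descriptions and give no independent support for a direction. All 6 pairs were higher in NLS for 376 features (3.49%), of which 336 were named genes, and all 6 were lower for 267 (2.48%), of which 218 were named. Over all features 47.7% of differences lay above 0. The median difference was 0.88 log2 units in the first set and -1.01 in the second. The median SE was 0.279 in the first set and 0.383 in the second, against 0.481 over all features. The shares set beside the lists below were not matched for SE. An unadjusted p under 0.05 held for 254 of the 376 and 174 of the 267, which the choice by sign favours. The lowest NLS array exceeded the highest WT array for 61 features (0.567%), and the highest NLS array lay under the lowest WT array for 17 (0.158%). Without centring, the features lower in all 6 pairs numbered 130, and those with no overlap numbered 16 above and 5 below. The pair differences correlated weakly across all features, between -0.03 and 0.137 over the 15 combinations of pairs, and pairs of one letter or one GH number share no array.

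**Figure D1:**
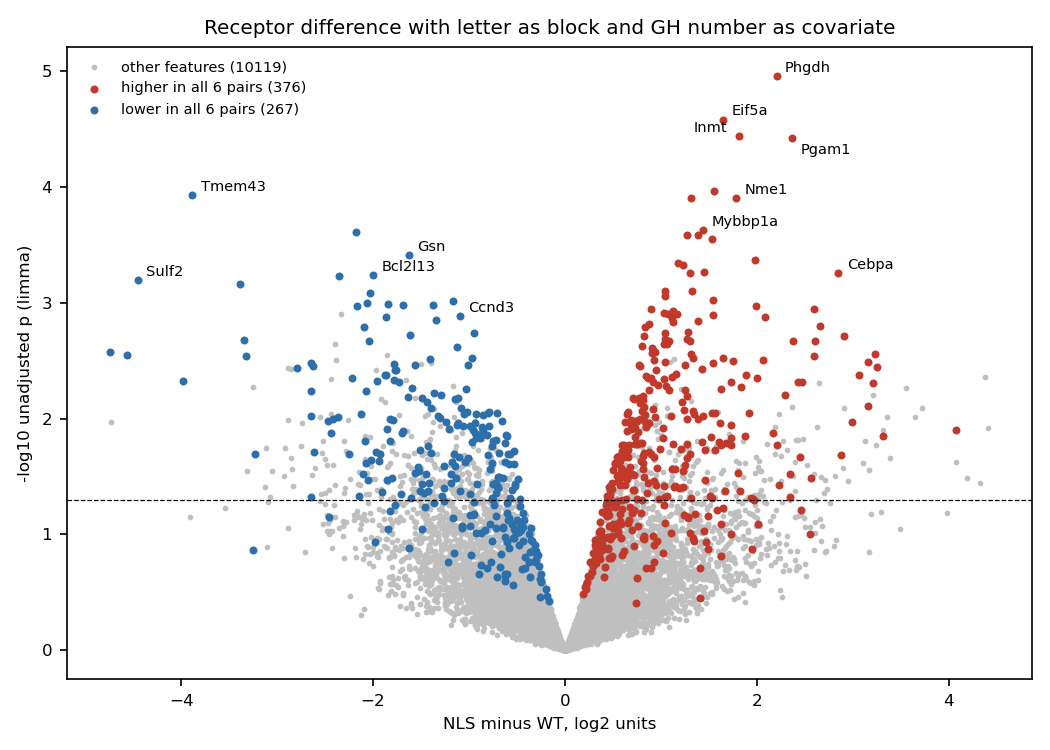
Difference of NLS minus WT in log2 units (horizontal) against -log10 of the unadjusted limma p (vertical) for 10762 features, with the dashed line at the 0.05 level. The 376 features higher in all 6 pairs are red, the 267 lower in all 6 are blue, and Phgdh lies highest at a difference of 2.21.

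Phgdh encodes phosphoglycerate dehydrogenase, which draws a glycolytic intermediate into serine synthesis. In NLS its log2 ratio was lowest at 1.25, had a median of 1.97 and was highest at 2.41. In WT it ran from -0.91 through a median of -0.31 to 0.31. Every NLS array lay above every WT array, and the 6 pair differences ran from 1.23 in letter d at 1GH to 2.69 in letter c at 1GH. The fitted difference was 2.21 (SE 0.25, 95% interval 1.64 to 2.77, limma adjusted p = 0.101). Of 11 tested genes of serine and one-carbon metabolism, 3 lay higher in all 6 pairs, against 3.49% of all features. The others were Gldc, the glycine-cleaving decarboxylase, at 1.88 (SE 0.49), and Shmt2, the mitochondrial serine hydroxymethyltransferase, at 0.83 (SE 0.26). Without letter d, Gldc lay at 1.11. The list was not uniform, since 6 of its 11 genes lay above 0 and 5 below, with a median of 0.48 against -0.03 over all features, or between 0.29 and 0.70 without single arrays.

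Glycolysis showed the largest difference among the leading higher genes after Cebpa. Pgam1, phosphoglycerate mutase, ran in NLS from -0.52 through a median of 0.09 to 1.28, and in WT from -3.74 through -2.07 to -0.84. The forms did not overlap, and the fitted difference was 2.37 (SE 0.31). Its difference was 2.97 at 0GH and 1.77 at 1GH, with an unadjusted interaction p from limma of 0.0463, and no feature passed the adjusted threshold for that interaction. Tpi1, triosephosphate isomerase, lay at 1.98 (SE 0.36) and Ldha, the A chain of lactate dehydrogenase, at 1.30 (SE 0.25), both with some overlap between forms. Slc16a1, a lactate and pyruvate transporter, lay at 0.87 (SE 0.27). Of 19 tested glycolysis genes 14 lay above 0 and 4 lay higher in all 6 pairs, beside 47.7% and 3.49% of all features, with a list median of 0.37. That median was positive in each of the 6 pairs, from 0.09 in letter d at 1GH to 1.11 in letter d at 0GH.

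The promoters of 4 of these genes are shown because the genes shared a direction in every pair. Each line gives the 250 bases before the most upstream listed start, 5′ to 3′ on the gene's strand, from RefSeq on GRCm38.p6. Capitals mark CACGTG, the E-box that MYC and related factors bind. The windows are chr3:98339970-98340219 on the minus strand for Phgdh, chr19:41911621-41911870 on the plus strand for Pgam1, chr11:93968273-93968522 on the minus strand for Nme1 and chr7:46845554-46845803 on the plus strand for Ldha.
Phgdh: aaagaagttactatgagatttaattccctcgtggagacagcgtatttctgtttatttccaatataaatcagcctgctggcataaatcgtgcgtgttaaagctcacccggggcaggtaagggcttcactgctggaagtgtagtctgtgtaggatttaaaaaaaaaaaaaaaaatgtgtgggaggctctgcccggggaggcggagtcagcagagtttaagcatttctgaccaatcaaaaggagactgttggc
Pgam1: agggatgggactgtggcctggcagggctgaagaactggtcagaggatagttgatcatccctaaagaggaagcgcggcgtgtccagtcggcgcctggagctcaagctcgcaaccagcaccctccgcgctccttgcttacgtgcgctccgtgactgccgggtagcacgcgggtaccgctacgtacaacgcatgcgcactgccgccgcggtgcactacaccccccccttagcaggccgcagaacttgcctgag
Nme1: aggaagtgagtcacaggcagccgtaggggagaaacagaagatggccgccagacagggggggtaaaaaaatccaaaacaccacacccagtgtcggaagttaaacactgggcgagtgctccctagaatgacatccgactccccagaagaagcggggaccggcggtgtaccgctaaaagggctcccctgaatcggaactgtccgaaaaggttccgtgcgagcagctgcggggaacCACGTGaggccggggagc
Ldha: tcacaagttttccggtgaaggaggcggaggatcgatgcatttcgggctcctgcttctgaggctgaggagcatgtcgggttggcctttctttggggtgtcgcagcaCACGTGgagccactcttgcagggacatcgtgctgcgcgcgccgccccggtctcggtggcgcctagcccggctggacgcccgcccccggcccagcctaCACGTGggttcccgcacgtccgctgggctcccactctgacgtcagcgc
Nme1 has 1 match, whose first base lies at -18 from the start, and Ldha has 2, at -145 and -48. The letters do not occur in the other two windows. Over windows of 250 bases before to 50 after each start, 34 of 268 genes higher in all 6 pairs held CACGTG (12.7%), as did 19 of 180 lower in all 6 (10.6%) and 724 of 6829 tested genes with a promoter entry (10.6%). The STAT5 motif TTCNNNGAA was found for 24 of the 268 (8.96%), 16 of the 180 (8.89%) and 576 of the 6829 (8.43%). Both motifs read the same on both strands, and a match of one cannot overlap a match of the other. These shares are descriptions without a test.

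Most transcripts of the nucleolus and of ribosome assembly lay above 0. Mybbp1a ran in NLS from 1.07 through a median of 1.66 to 2.19, and in WT from -0.10 through 0.24 to 0.51. No NLS array overlapped a WT array, and the pair differences stayed between 0.98 and 1.74. The fitted difference was 1.44 (SE 0.24), with 1.45 at 0GH and 1.43 at 1GH. Nhp2, a protein of the H/ACA particles that guide pseudouridylation, ran in NLS from 1.07 to 1.81 and in WT from -0.30 to 0.82, again without overlap, and lay at 1.28 (SE 0.22). Nop58, a core protein of the C/D particles, lay at 1.07 (SE 0.23), and Pno1, an assembly factor of the small subunit, at 1.54 (SE 0.33). Of 46 tested genes of ribosome biogenesis 35 lay above 0 and 7 lay higher in all 6 pairs, beside 47.7% and 3.49% of all features. None lay lower in all 6, where the share of all features is 2.48%, so that a count of 0 in a list of this size is near it. The list median was 0.36, or 0.65 without letter d. The list medians by pair were all positive, from 0.10 to 0.63.

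For the structural proteins of the ribosome, 60 tested genes had a median of 0.04, 32 lay above 0, and none lay higher or lower in all 6 pairs, against 3.49% and 2.48% of all features. The median was 0.35 at 0GH and -0.24 at 1GH, a gap between GH numbers that was not tested for the list. Mitochondrial ribosome genes had a median of 0.06 over 58, with Mrpl42 at 0.82 (SE 0.23) and Mrps31 at -0.46 (SE 0.24) as the ones of a single sign in all 6 pairs.

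Most tested translation factors lay above 0. Eif5a, an elongation factor that carries the amino acid hypusine, ran in NLS from -0.17 through a median of 0.69 to 1.36, and in WT from -1.57 through -0.95 to -0.56. The forms did not overlap, and the fitted difference was 1.65 (SE 0.21, 3.13-fold). Odc1, ornithine decarboxylase, which opens polyamine synthesis, lay at 1.28 (SE 0.30) without overlap, and Sms, spermine synthase, at 0.82 (SE 0.46) with a limma adjusted p of 0.677. These are the 3 of 9 polyamine and hypusine genes that lay higher in all 6 pairs, against 3.49% of all features, and the list had a median of 0.72. Among 35 translation factors 29 lay above 0, against 47.7% of all features, with Eif1ax, an initiation factor, at 0.72 (SE 0.20) and Gspt1, a release factor, at 0.53 (SE 0.19). Among 17 tRNA synthetases 11 lay above 0, and 1 of them, Cars, the cysteinyl enzyme, lay higher in all 6 pairs at 0.63 (SE 0.23), which is near the share of 3.49%. The synthetase median was 0.51, but 0.14 at 1GH alone and 0.23 without the NLS 0GH array of letter d.

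**Figure D2:**
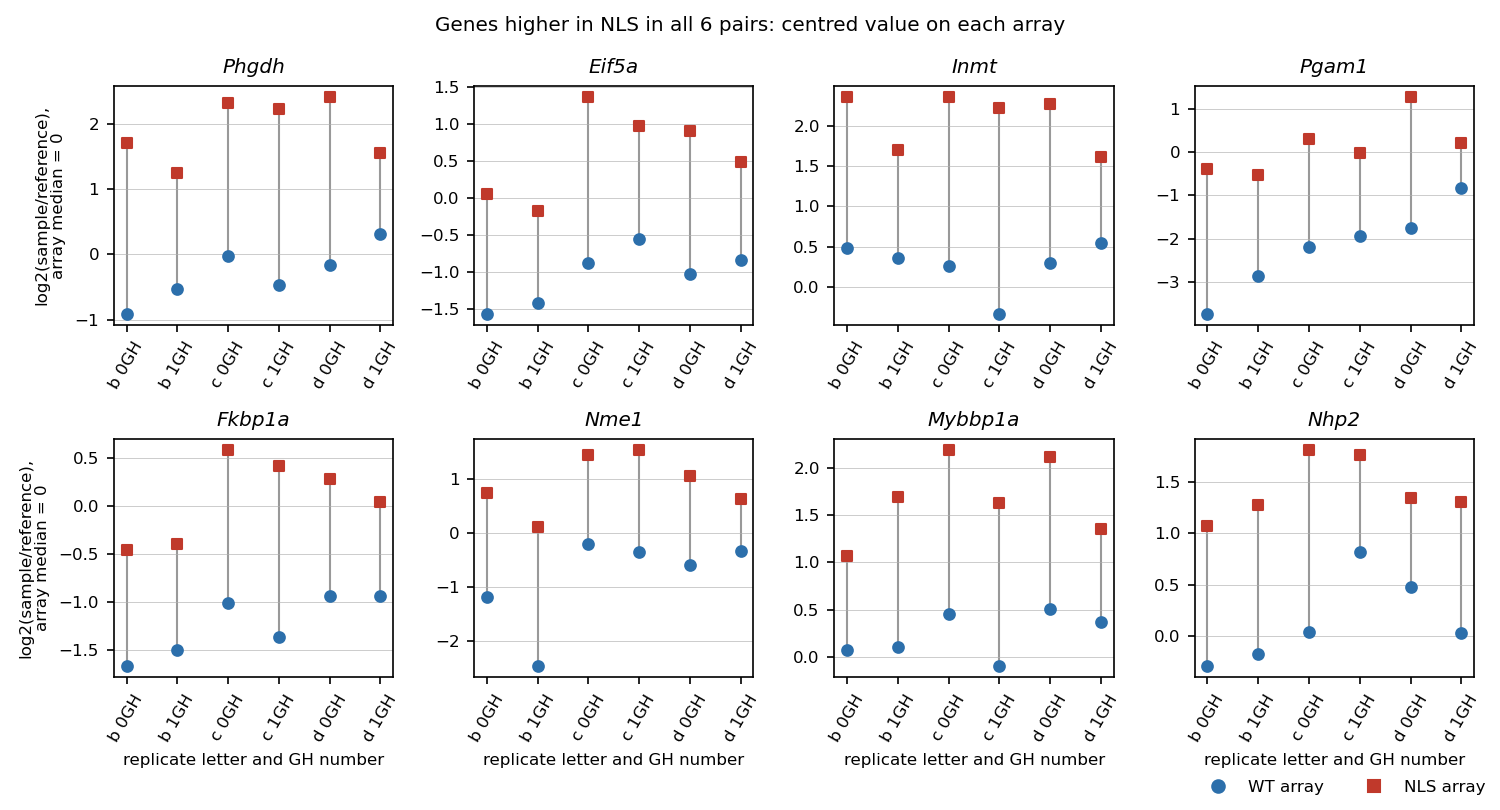
Centred log2 ratio of sample over reference (vertical) for 8 of the 15 leading higher genes, by replicate letter and GH number (horizontal), with NLS arrays as red squares, WT arrays as blue circles and a line joining each pair. In every panel the red square lies above the blue circle of its pair, and for Phgdh the lowest NLS value, 1.25, lies above the highest WT value, 0.31.

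The FK506-binding proteins Fkbp1a, Fkbp3 and Fkbp4 lay higher in all 6 pairs. They were put together after their values were seen, and the other tested genes of the family were not counted. Fkbp1a, the prolyl isomerase FKBP12 that binds FK506, ran in NLS from -0.45 through a median of 0.16 to 0.59, and in WT from -1.67 through -1.19 to -0.93. Its pair differences lay between 0.98 and 1.77, and the fitted difference was 1.31 (SE 0.20). Fkbp3, a nuclear member of the same family, lay at 1.17 (SE 0.22), and Fkbp4, a partner of HSP90, at 1.04 (SE 0.21), each without overlap. Among 45 chaperone genes 30 lay above 0 and 6 lay higher in all 6 pairs, beside 47.7% and 3.49% of all features, including 3 subunits of the CCT chaperonin. These were Cct6a at 1.03 (SE 0.22), Tcp1 at 0.88 (SE 0.20) and Cct7 at 0.77 (SE 0.20). The tested CCT subunits were not counted as a group of their own. Proteasome genes lay above 0 in 24 of 29 cases, beside the same 47.7%, with the regulatory subunits Psmd1 at 0.80 (SE 0.19) and Psmd12 at 0.63 (SE 0.22). These were the 2 of 29 higher in all 6 pairs, against 3.49% of all features. The proteasome median was 0.26, and by pair it ran from -0.17 in letter d at 1GH to 0.48 in letter d at 0GH.

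Genes of transport through the nuclear pore, the route of a nuclear localization signal, had a median of 0.52, with 23 of 30 above 0. Over all features 47.7% lay above 0. Higher in all 6 pairs were 5 of the 30, against 3.49% of all features, and lower in all 6 were 0, a count near the share of 2.48%. Nup93, a scaffold protein of the pore, ran in NLS from 0.96 through a median of 1.27 to 1.88, and in WT from -0.50 through 0.34 to 0.41. It did not overlap and lay at 1.12 (SE 0.24). Ranbp1, a regulator of the RAN GTPase, lay at 1.03 (SE 0.24), Xpo1, the main exportin of proteins, at 0.80 (SE 0.29), and Kpnb1, the importin beta that carries such signals, at 0.56 (SE 0.20). The list median was between 0.24 and 0.73 in the 6 pairs. Splicing genes gave 33 of 45 above 0 and 7 higher in all 6 pairs, against those shares of 47.7% and 3.49%, including Hnrnpab at 0.92 (SE 0.22), Snrpf at 0.84 (SE 0.22), Snrpa1 at 1.02 (SE 0.32) and Snrpd2 at 1.25 (SE 0.34). The difference of Snrpd2 was 1.92 at 0GH and 0.57 at 1GH (unadjusted interaction p from limma 0.0409).

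Most tested respiratory chain genes lay above 0. They numbered 47 of 63, beside 47.7% of all features, and 8 lay higher in all 6 pairs, beside 3.49%, at a median of 0.32. Ndufs4 lay at 1.38 (SE 0.42), Ndufs3 at 0.76 (SE 0.25) and Ndufb10 at 0.62 (SE 0.21), all subunits of complex I, and Cyc1, cytochrome c1, lay at 0.73 (SE 0.24). Of 18 genes of the TCA cycle 3 lay higher in all 6 pairs and 1 lower, against 3.49% and 2.48% of all features. Idh3a, a subunit of the NAD-dependent isocitrate dehydrogenase, ran in NLS from -0.28 to 0.40 and in WT from -1.81 to -0.58, without overlap, at 1.45 (SE 0.28). Idh2 lay at 0.49 (SE 0.20), Mdh1 at 0.39 (SE 0.21), and Glud1, glutamate dehydrogenase, lay lower in all 6 pairs at -0.49 (SE 0.19).

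In nucleotide and lipid synthesis 3 of 25 and 2 of 20 genes lay higher in all 6 pairs, against 3.49% of all features, and both list medians were positive in each of the 6 pairs. Nme1, a nucleoside diphosphate kinase, ran in NLS from 0.10 through a median of 0.90 to 1.54, and in WT from -2.48 through -0.49 to -0.21. The forms did not overlap, and it lay at 1.78 (SE 0.28). Guk1, guanylate kinase, lay at 0.80 (SE 0.24) and Impdh1, which commits IMP to guanine nucleotides, at 0.57 (SE 0.23), while the 25 genes of the list had a median of 0.07, or -0.20 without the NLS 0GH array of letter b. Scd2, a fatty acid desaturase, lay at 1.33 (SE 0.27) without overlap, and Msmo1, a sterol oxidase, at 1.22 (SE 0.35), in a list of 20 with a median of 0.26. That median was 0.48 without the NLS 0GH array of letter b and 0.46 when at least 2 values per group were required. Of 14 genes of amino acid transport and stress 2 lay higher in all 6 pairs, against the same 3.49%, the transporters Slc3a2 at 0.65 (SE 0.20) and Slc38a2 at 0.78 (SE 0.27).

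**Figure D3:**
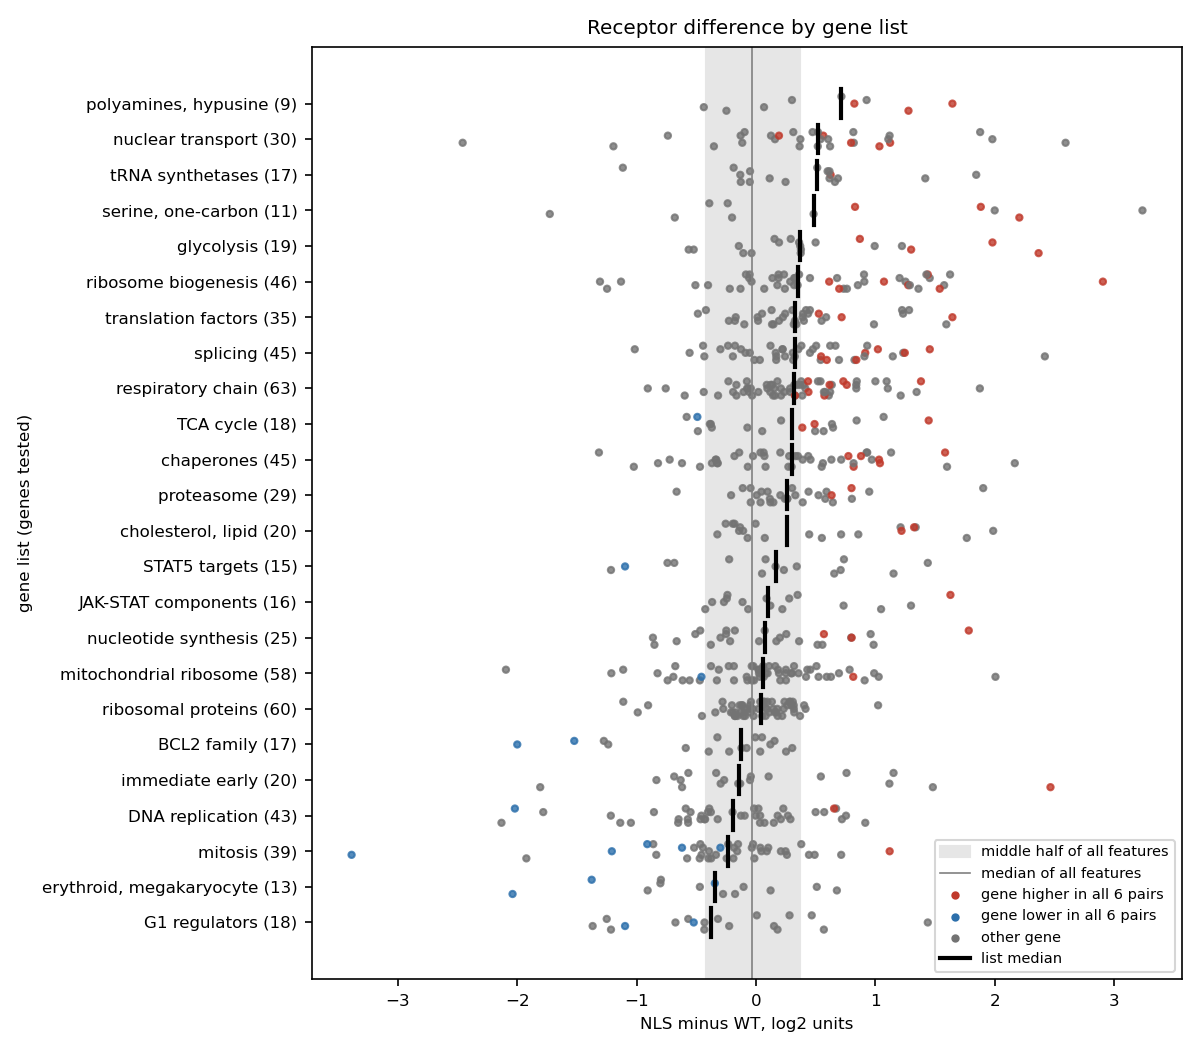
Fitted difference of NLS minus WT in log2 units (horizontal) for each tested gene of 24 lists (rows), with the list median as a black bar and the middle 50% of all features shaded. Polyamine genes have the highest median, 0.72, and G1 regulators the lowest, -0.37, against -0.03 over all features.

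Without single arrays, list medians stayed between 0.55 and 0.85 for polyamine genes, 0.38 and 0.57 for nuclear transport, 0.38 and 0.49 for ribosome biogenesis, 0.24 and 0.41 for translation factors, 0.20 and 0.44 for glycolysis, and 0.23 and 0.36 for the respiratory chain. The polyamine median was 0.91 at 0GH and 0.28 at 1GH, and by pair it ran from -0.38 in letter d at 1GH to 1.42 in letter c at 1GH. The median of translation factors was 0.44 at 0GH and 0.09 at 1GH. By pair it ran from -0.19 in letter d at 1GH to 0.55 in letter d at 0GH.

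Other leading higher genes belong to no shared group. Inmt, indolethylamine N-methyltransferase, ran in NLS from 1.61 through a median of 2.24 to 2.36, and in WT from -0.33 through 0.33 to 0.54. The NLS arrays were close together and apart from WT, with a fitted difference of 1.82 (SE 0.24). Cebpa, a transcription factor of myeloid differentiation, ran in NLS from -2.15 to 1.10 and in WT from -5.75 to -0.35. The forms overlapped between letters, yet every pair was higher, from 0.91 to 4.69, and the difference was 2.85 (SE 0.54). The myeloid list did not share this direction, with 9 of its 14 tested genes below 0. Marcksl1, an actin-binding protein, lay at 1.39 (SE 0.24) and Polr2l, a subunit that the nuclear RNA polymerases share, at 1.23 (SE 0.23), both without overlap. In all, 12 of the 15 leading higher genes did not overlap between forms, against 5 of the 15 leading lower genes. Leaving out any 1 array moved no difference of these 30 genes by over 1.5 times.

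Tmem43 led the lower side. In NLS it ran from -2.06 through a median of -0.72 to 0.84, and in WT from 1.18 through 3.23 to 4.54. The forms did not overlap, and the difference was -3.88 (SE 0.60, limma adjusted p = 0.168). Sulf2, a sulfatase that edits heparan sulfate outside the cell, ran in NLS from -9.82 through -3.93 to -3.22 and in WT from -2.06 through -0.63 to 1.25. It did not overlap and lay at -4.45 (SE 0.87). Its lowest value exceeds in size the 8.36 that a 16-bit scanner gives over a floor of 200, so it may not be an exact level. The series' design text gives that floor for control signals only, so the limit covers ratios in a single direction, before centring. Klk1b11, a kallikrein, lay at -1.85 (SE 0.39), but its spots gave -1.58 and -2.12, and the first was lower in 4 of 6 pairs, so this gene of a family of near-identical copies is uncertain.

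Genes of the cytoskeleton and of transcription were also among the leading lower ones. Gsn ran in NLS from -4.75 through a median of -3.62 to -2.55, and in WT from -2.70 through -1.92 to -1.0. The forms overlapped slightly, and the difference was -1.63 (SE 0.29). Parvb, a focal adhesion protein, lay at -2.17 (SE 0.46). Hivep1, a zinc finger transcription factor, ran in NLS from -1.65 through -1.34 to 0.04, and in WT from -0.19 through 0.52 to 2.05, at -1.68 (SE 0.35). Polr3c, a subunit of RNA polymerase III, lay at -2.10 (SE 0.47) and Trim59, a tripartite motif protein, at -0.94 (SE 0.22), both without overlap. Hormad1, a meiotic chromosome axis protein, lay at -2.35 (SE 0.45), and Ptgr1, a prostaglandin reductase, at -1.17 (SE 0.24). The difference of 1700012B09Rik was -2.94 at 0GH and -1.13 at 1GH (unadjusted interaction p from limma 0.0155).

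**Figure D4:**
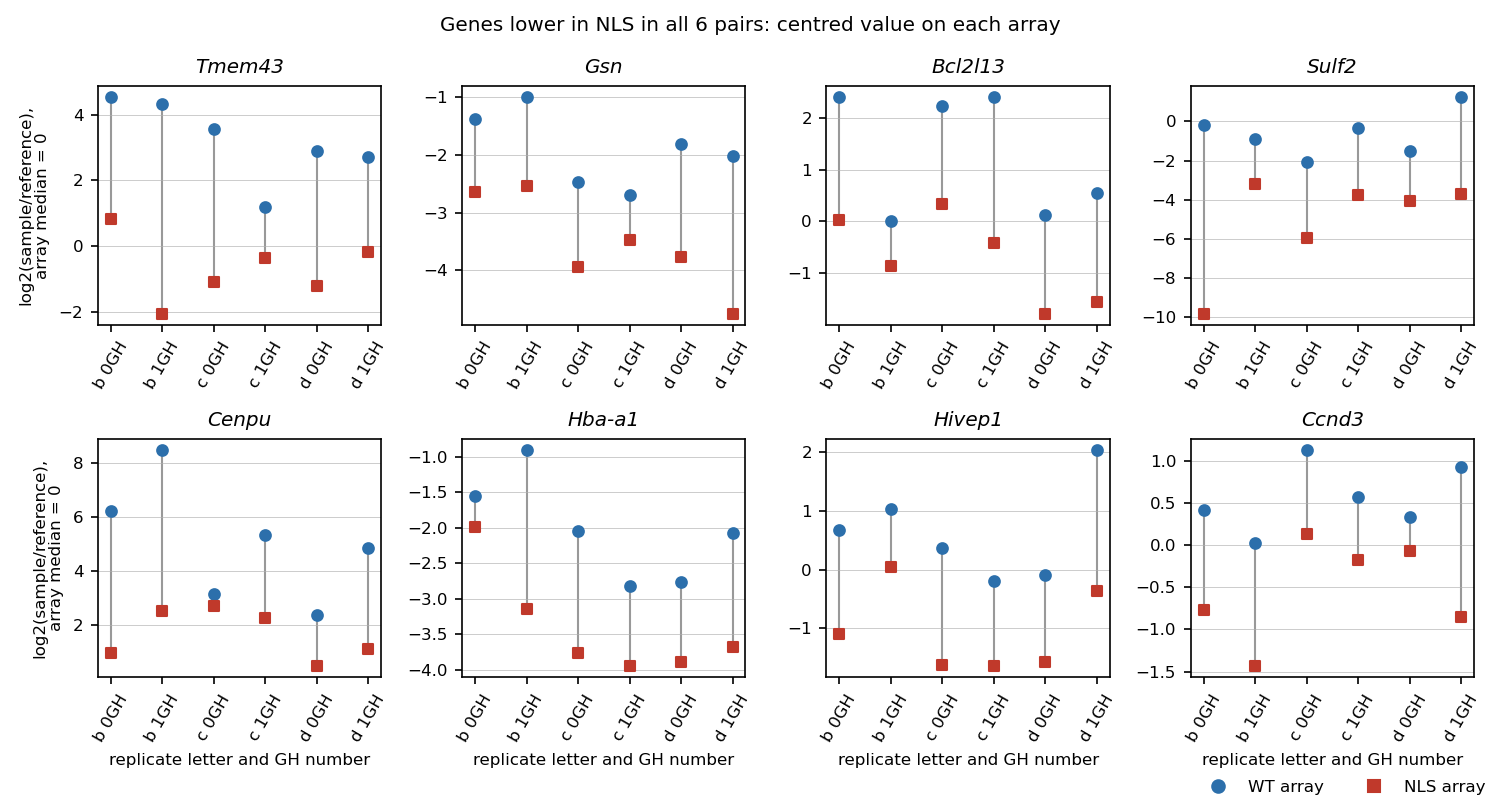
Centred log2 ratio of sample over reference (vertical) for 8 of the 15 leading lower genes, by replicate letter and GH number (horizontal), with NLS arrays as red squares, WT arrays as blue circles and a line joining each pair. In every panel the red square lies below the blue circle of its pair, and for Tmem43 the highest NLS value, 0.84, lies below the lowest WT value, 1.18.

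Genes of the cell cycle lay below 0 in more cases than above, and over all features 47.7% lay above 0. Ccnd3 ran in NLS from -1.44 through a median of -0.47 to 0.13, and in WT from 0.03 through 0.49 to 1.13. A single NLS array lay above the lowest WT array, and the difference was -1.10 (SE 0.24), with -0.86 at 0GH and -1.33 at 1GH. Tfdp2, a partner of E2F factors, lay at -0.52 (SE 0.21). Ccnd3 and Tfdp2 were the 2 of 18 G1 regulators with a single sign in all 6 pairs, against 2.48% of all features lower in all 6. Of the 18 genes 11 lay below 0. Ccnd2 lay at -1.21 (SE 0.65, limma adjusted p = 0.657) with 4 of 6 pairs lower. The G1 list median of -0.37 became -0.08 without letter b and -0.12 without the WT 1GH array of that letter. It was -0.09 when at least 2 values per group were required. By pair it ran from -0.45 in letter c at 1GH to 0.20 in letter d at 1GH, above 0 in 3 of 6 pairs. Cenpu, a centromere protein, ran in NLS from 0.48 through 1.70 to 2.69 and in WT from 2.39 through 5.09 to 8.49, overlapping slightly, at -3.39 (SE 0.67). Its highest WT value is also larger in size than 8.36 and may not be an exact level. Among 39 mitosis genes 27 lay below 0 and 5 lay lower in all 6 pairs, against 2.48% of all features, including Cenpf at -1.21 (SE 0.39) and Smc2, a condensin subunit, at -0.91 (SE 0.30). Smc2 rests here on 1 spot, so its single sign is that of this spot alone. It was 0.26 when at least 2 values per group were required, a filter that lets further spots of a gene into its average. The mitosis list median was negative in all 6 pairs, from -0.42 to -0.03, while Kif4, a chromosome kinesin, lay higher in all 6 at 1.12 (SE 0.30). DNA replication genes had a median of -0.20 over 43, with Mcm7, part of the replicative helicase, at 0.65 (SE 0.20) and Pold3, a polymerase delta subunit, at -2.02 (SE 0.74) in opposite directions.

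Of 17 tested BCL2 family genes 2 lay lower in all 6 pairs, against 2.48% of all features, and 0 lay higher, a count near the share of 3.49%. Bcl2l13, a BCL2 family protein of the mitochondrial outer membrane, ran in NLS from -1.79 through a median of -0.64 to 0.33, and in WT from 0.00 through 1.39 to 2.41. The forms overlapped, all pairs were lower, and the difference was -2.0 (SE 0.38). Bcl2l14 lay at -1.52 (SE 0.58), the other gene of a single sign. Bcl2l1, which encodes the survival protein BCL-XL, lay at 0.05 (SE 0.28) with 3 pairs higher and 3 lower. Birc5, the inhibitor survivin, lay at 0.10 (SE 0.71), with pair differences from -2.45 to 3.82, and its sign turned to -0.13 with quantile normalization and to -0.49 without the NLS 0GH array of letter b. Bcl2l1 turned to -0.16 without the WT 1GH array of letter d. Birc2 lay at 2.17 (SE 0.71) and Birc6 at -0.95 (SE 0.45, limma adjusted p = 0.645), and Birc6 lay at -0.49 without the WT 0GH array of letter d. Of 11 tested p53 targets, 0 had a single sign in all 6 pairs, a count near the shares of 3.49% higher and 2.48% lower over all features.

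The receptor gene itself overlapped between the forms. Ghr ran in NLS from -0.75 through a median of 0.47 to 2.38, and in WT from -1.10 through -0.51 to 0.62. It lay higher in NLS in 5 of 6 pairs, with differences from -0.05 to 1.87, and the fitted difference was 1.05 (SE 0.54, 95% interval -0.18 to 2.28, limma adjusted p = 0.654). It was 0.69 without the NLS 0GH array of letter d. The labels do not give the species or sequence of the introduced receptor, so this mouse spot is no check of the forms. Of 16 tested genes of the JAK-STAT list, which includes Ghr, 1 lay higher in all 6 pairs and 0 lower. Over all features the shares were 3.49% and 2.48%, so these counts are near them. The gene was Irs2, an adaptor of insulin and cytokine receptors, at 1.63 (SE 0.45), and the list median was 0.10. Jak2 and Myc had values on 11 arrays and Socs3 on 6, so they were not fitted. Stat5a had no value on any array, and no spot was matched to Stat5b or Prlr.

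Among STAT5 targets no direction was shared. Cish ran in NLS from 1.75 through a median of 2.17 to 2.54 and in WT from 0.08 through 1.31 to 2.95. The NLS arrays lay within the range of the WT arrays, which varied far more, and the difference was 0.74 (SE 0.53) with 4 of 6 pairs higher. Socs2 lay at -0.74 (SE 0.52) with 5 of 6 pairs lower. Pim1, a survival kinase, lay at 0.16 (SE 1.45), and this value rests on 1 pair that differed by 8.27, since it became -1.95 without letter c. Id1, an inhibitor of differentiation factors, lay at 0.34 (SE 0.40) and at -0.05 without letter b. Of 15 tested targets 10 lay above 0, Ccnd3 was lower in all 6 pairs and 0 were higher in all 6, at a list median of 0.16. Over all features 47.7% lay above 0, 2.48% were lower in all 6 and 3.49% higher, so the counts of a single sign are near those shares. Fxyd5, an ion transport regulator, lay at 1.32 (SE 0.61) with 5 of 6 pairs higher. Single arrays moved these values by over 1.5 times. Without 1 array at a time, Cish lay between 0.42 and 1.19, the extremes without the WT 0GH arrays of letters c and d. Socs2 reached -0.28 without the NLS 1GH array of letter b, and Ccnd2 and Id1 reached -0.79 and 0.05 without the WT 0GH array of letter b. Fxyd5 lay at 0.74 without the NLS 0GH array of letter b, and Pim1 turned to -1.34 without the WT 0GH array of letter c.

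Early response and interferon genes followed. Junb, an AP-1 component, ran in NLS from -0.22 through a median of 1.85 to 4.58 and in WT from -3.30 through -0.33 to 1.28, with overlap, at 2.47 (SE 0.66). Its difference was 1.07 at 0GH and 3.86 at 1GH (unadjusted interaction p from limma 0.0238). Junb was the one of 20 immediate early genes with a single sign in all 6 pairs, a count near the share of 3.49%. Of these 20 genes 13 lay below 0, where 47.7% of all features lay above 0, and the list median was -0.14. The interferon list of 27 had 3 genes higher in all 6 pairs, against 3.49% of all features, and 1 lower, which is near the share of 2.48%. Ifi35 lay at 1.63 (SE 0.55), Ifitm2 at 0.87 (SE 0.27) and Ifih1, a sensor of double-stranded RNA, at -1.10 (SE 0.40) or -0.71 without the WT 0GH array of letter b. The spots of Ifitm2 gave 0.76 and 0.99, and the second was higher in 5 of 6 pairs. Igtp, an interferon-induced GTPase, lay at 1.19 (SE 0.49), with pair differences of 2.92 and 2.94 in letter b and of 0.16 to 0.58 in the others, and at 0.31 without letter b.

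Markers of other cells were set beside these results. Erythroid and megakaryocyte genes had a median of -0.34, with 10 of 13 below 0 and 3 lower in all 6 pairs, where 47.7% of all features lay above 0 and 2.48% lay lower in all 6. By pair that median lay above 0 in letter b at 0GH, at 0.12, and below 0 in the others. Fewer cells of a type cannot be told apart from less RNA per cell in such samples. Hba-a1, an alpha globin, ran in NLS from -3.95 through a median of -3.72 to -1.99, and in WT from -2.82 through -2.06 to -0.90. The forms overlapped, and the difference was -1.38 (SE 0.29). Hba-x, the embryonic alpha-like globin, lay at -2.04 (SE 0.48), but its spots gave -3.52 and -0.56. The second spot was higher in NLS in 4 of 6 pairs, so the place of Hba-x among the 3 genes is uncertain. Cross-hybridisation between globin copies cannot be separated. Gp9, a platelet glycoprotein, lay at -0.34 (SE 0.20). The mean level of the erythroid list ran from -0.62 to 0.40 over NLS arrays and from 0.10 to 1.03 over WT arrays, and its part in the other results was not tested. This level covers 19 genes with values on at least 6 arrays, set against the median of all spots with a value. The genes present differ between arrays, so it is not the level of the 13 tested genes. For the myeloid list, to which Cebpa belongs, the mean level of 22 such genes ran from -1.47 to -0.36 over NLS arrays and from -1.66 to -0.03 over WT arrays. Of its 14 tested genes 5 lay above 0 and 9 below, at a median difference of -0.09. That median was 0.32 at 0GH and -0.35 at 1GH. Cebpa was the 1 higher in all 6 pairs and 0 were lower, counts near the shares of 3.49% and 2.48%. B lymphoid, T lymphoid, mast cell, fibroblast, epithelial and hepatocyte markers had 0 genes of a single sign in all 6 pairs, with medians of -0.0016, 0.12, -0.10, -0.33, -0.20 and -0.11 in that order. In lists of these sizes such counts are near the shares of 3.49% higher and 2.48% lower. Without single arrays the T lymphoid median lay between -0.16 and 0.27, the epithelial between -0.50 and 0.51, and the hepatocyte between -0.21 and 0.11. The fibroblast median lay between -0.52 and -0.10.

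Dye incorporation and the Gapdh control spots were compared in the same pairs. The number of bases per green dye molecule, which is smaller where more dye was incorporated, was lower in NLS in 5 of 6 pairs and equal in the other, with a gap of -6.4 in letter c at 1GH and of -2.5 in letter d at 1GH. Fitted with that value as a covariate, the difference was 2.16 for Phgdh, 1.70 for Eif5a, 1.69 for Inmt, 2.59 for Pgam1 and -4.60 for Tmem43. The mean of 182 Gapdh control spots lay higher in NLS in 4 of 6 pairs, by up to 1.10, and the other differences were -0.42 and -0.10.

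The receptor difference was then compared between GH numbers. For the interaction, limma gave 0 of 10762 features past the adjusted threshold (0%), a lowest adjusted p of 0.950 and 399 (3.71%) at an unadjusted p under 0.05. Within the sets of a single sign in all 6 pairs, 6 of 376 and 4 of 267 had such a p, and the choice by sign lowers these counts. Phgdh lay at 2.52 at 0GH and 1.90 at 1GH, Inmt at 1.97 and 1.66, Nme1 at 1.74 and 1.82, Tmem43 at -4.16 and -3.60, and Sulf2 at -5.35 and -3.55. The GH numbers thus gave the same side for all 30 leading genes, which the choice by sign fixes, while Pim1 lay at 1.52 and -1.19, Birc5 at 0.78 and -0.57, and Bcl2l1 at -0.07 and 0.17.

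**Figure D5:**
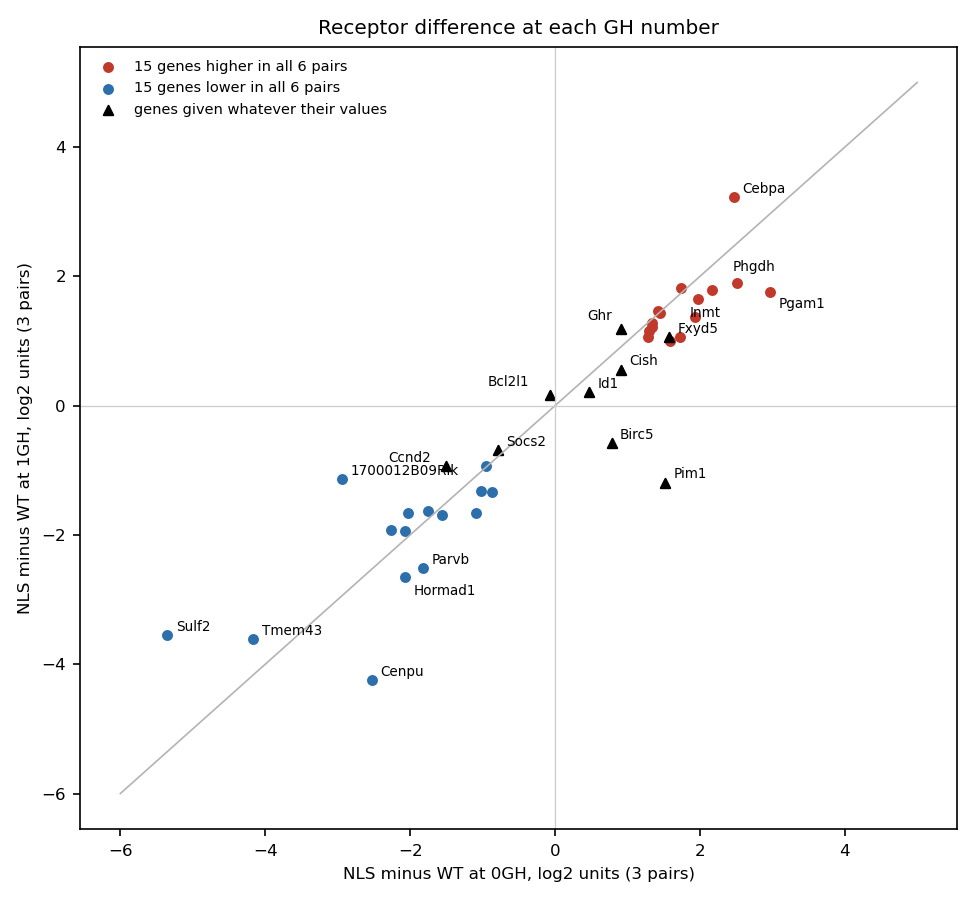
Difference of NLS minus WT at 1GH (vertical) against that at 0GH (horizontal), both in log2 units over 3 pairs, with the line of equality in grey. Red circles are the 15 leading higher genes, blue circles the 15 leading lower genes and black triangles the genes given whatever their values, among which Pim1 lies at 1.52 and -1.19.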

How the data were processed

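The deposited values of the 12 arrays were read as log2 ratios of the channels. Per the series' design text, the authors corrected the control value with a Lowess curve (log ratio by log intensity, 50% of points per fit) and raised control signals under 200 to 200. For the scanner, image software, background method and numerator the sources used here give nothing. Log base 2 was inferred from a range of -18.2 to 14.6, with 1861 values larger in size than 8.36, the limit of a 16-bit scanner over that floor.

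The sign was turned, 902 control spots (573 blank, 235 Gapdh, 94 YIR) were left out, spots with a value on all 12 arrays (11245 of 22138) were averaged per symbol, and arrays were centred on the median. Of 367 genes with several spots, 188 had spots of both signs. Entrez identifiers matched RefSeq for 16249 spots (0 symbols updated), and 142 spots with several symbols stayed unnamed. Depth does not apply to arrays.

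limma 3.58.1 in R 4.3.3 (lmFit, eBayes, two-sided, Benjamini-Hochberg over 10762 features, threshold 0.05) fitted receptor form, GH number and letter, with 7 residual degrees of freedom, and the interaction in a further fit. Letters pair the arrays: arrays of a letter have 1 red dye incorporation (19.3, 19.8 or 17.9 bp per molecule of dye, per the labels), and deviations from group means correlated at 0.0433 to 0.263 within a letter and -0.187 to 0.066 between letters. The scripts were checked on simulated data. Named genes are the 15 with the smallest p on each side among those of 1 sign in all 6 pairs, up to 4 such genes per list (37 lists), and a fixed set such as Ghr and Cish. Members and lists were chosen with earlier results of these data known. List medians and counts carry no test. Alternatives varied the block, centring, filter, averaging, prior, dye covariate and arrays. Figures used Python 3.11.15 and matplotlib 3.10.9.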

Additional observations from a re-analysis of the deposited data

Results flagged for a closer look

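Among the named genes, 11 values of single arrays lay far from the 5 others of their form (Dixon's test at 95%, which chance passes in about 1 of 20 groups). Each named gene gives a group for each form, so a count of this size can arise by chance. In NLS arrays, Klk1b11 was at -4.29 in 0GH letter d and Trim59 at -0.19 in the same array. Bcl2l14 was at -0.12 and Gp9 at 0.40 in 1GH letter c, and Pold3 at 5.08 and Sms at -1.52 in 1GH letter b. In WT arrays, Pim1 was at -7.25 in 0GH letter c, and Inmt at -0.33 in 1GH letter c. Birc6 was at 3.0 and Nup93 at -0.50 in 0GH letter d, and Ifih1 at 3.24 in 0GH letter b.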

How the results depend on the processing

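With a single letter or array left out, and so fewer pairs, features higher in all remaining pairs numbered 502 to 994, and those lower in all numbered 425 to 969. Counts with no overlap were 67 to 305 above and 24 to 293 below. The replicate block moved calls: with the letter as a random replicate block 2 features passed the adjusted threshold, and with no replicate block 0 passed, 622 had an unadjusted p under 0.05 and the interaction count was 260. Not centred, 130 features were lower in all 6 pairs, 16 lay above and 5 below without overlap, and the interaction count was 609. With at least 2 values per group, 43 lay below without overlap and the interaction count was 645. The 0GH arrays alone gave 590 features at an unadjusted p under 0.05 and the 1GH arrays alone 522.

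Signs turned for 5 genes. Birc5 was -0.13 with quantile normalization, -0.57 at 1GH alone, and -1.02 to 1.11 without single letters or arrays. Smc2 was 0.26 with at least 2 values per group, where further spots of the gene enter its average. Pim1 was -1.19 at 1GH alone and -1.95 to 1.26 without single letters or arrays. Bcl2l1 was -0.070 at 0GH alone and -0.16 to 0.21, and Id1 -0.053 to 0.70, without single letters or arrays. For the genes other than Smc2 the cause was not tested. Of all gene differences recomputed, 2449 kept sign and side of the threshold, 17 turned and 2 (Phgdh and Inmt) passed it. Of list medians, 919 moved by less than the SD over pairs and 43 by more.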

Other observations

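Some spots had a value with 1 form and not with the other. Of 22138 spots, 1 had a value on all 6 NLS arrays and on at most 1 WT array, that of 1700092C02Rik. In the other direction there were 4, which include Tfpi, the tissue factor pathway inhibitor, Tcra, a T cell receptor chain, Eva1c and an unnamed spot. These symbols were chosen after their values were seen. With at most 2 arrays of the other form, the numbers were 9 and 31, and the value on all arrays of a form was present for 12777 spots in NLS and 13255 in WT. A missing value is not a measured level, so no fold is given.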
